A study of Homo sapiens with 6 samples.

Results

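The SLC12 genes encode the cation-chloride cotransporters, membrane proteins that carry chloride together with sodium, potassium or both. The 8 genes described here, SLC12A1, SLC12A2, SLC12A3, SLC12A4, SLC12A5, SLC12A7, SLC12A8 and SLC12A9, were found by their symbols among the 48114 gene rows of the deposited table, and each matched 1 row. They were measured by RNA sequencing in the human cell line TC-71, derived from an Ewing sarcoma and labelled wild type, treated for 16 h either with BEZ235, which blocks the lipid kinase PI3K and the growth kinase mTOR and was dissolved in dimethyl sulfoxide (DMSO), or with DMSO. Each group had 3 libraries from biological replicates of this 1 cell line, and the labels name no dose of BEZ235. The genes were proposed with the difference between these groups in view, SLC12A3 having the largest rise among them, so their differences between BEZ235 and DMSO are given below as a description and without p-values.

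Sodium-coupled members of the family bring chloride into the cell, and the potassium-chloride members let it out, so that their balance sets cell volume and the chloride gradient. WNK kinases sense chloride and osmotic state and act through the kinases STK39 (SPAK) and OXSR1 (OSR1), whose phosphorylation switches the sodium-coupled carriers on and the potassium-chloride carriers off. PI3K signalling reaches this system through SGK kinases, which act on WNK kinases and on the ubiquitin ligase NEDD4L. SLC12A3 is best known from the distal convoluted tubule of the kidney, where thiazide diuretics block it.

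The values are the authors' normalized counts, reads per gene divided by a scaling factor per library. Every value could be converted back to whole reads, which summed over all gene rows to between 184790722 and 233767211 per library. Reads shared by overlapping rows could enter such a sum more than once. The upper limit for a zero, 3 reads, was worth 2.50 to 3.47 normalized counts. Across genes, Pearson's r between libraries was 0.982 or more within a group and 0.939 or less between groups. Of 9 Ewing sarcoma markers, all were well above the detection limit in both groups, with CD99, the surface marker used in diagnosis, at 263162 ± 3650 (SD, n = 3) in DMSO and 208374 ± 2750 in BEZ235. The 5 blood and 4 endothelial markers did not exceed 16.5 normalized counts in any library, and of the 4 epithelial markers KRT19 and KRT5 were at 0, CDH1 overlapped between the groups and EPCAM rose from 55.3 ± 13.9 to 115 ± 23.1 (log2 difference 1.06, SE 0.281, limma adjusted p = 0.00636). The 4 fibroblast genes, several of which Ewing cells transcribe, summed to 11358 to 12460 in BEZ235 and 11486 to 12628 in DMSO.

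SLC12A3 went from near absence to a low but clear level, SLC12A7 was 2.31-fold, SLC12A9 1.98-fold and SLC12A8 1.56-fold higher with BEZ235. SLC12A4 was the member that was lower with BEZ235. SLC12A2 and SLC12A5 overlapped between the groups, and SLC12A1 had 9 or fewer reads in every library. Rows that reached 10 normalized counts in 3 or more libraries were compared with limma on log2(normalized count + 1), with an adjusted p below 0.05 as the call, and 7 of the 8 members passed this filter. Of these 7, 4 were called higher and 1 lower. Over all 23923 rows tested, 66.3% were called, 33.1% higher and 33.2% lower, and 70.9% had groups that did not overlap. The median log2 difference was 0.64 over the 7 members and -0.001 over all tested rows, and since the members were chosen on this contrast nothing is read from these counts.

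Start-site sequences of SLC12A3, SLC12A7, SLC12A9 and SLC12A4 are shown, a choice made after their values were seen: the first had the largest difference, the next pair were the most raised of the members abundant in DMSO, and SLC12A4 was lower. Each covers 250 bases before and 50 bases from the annotated start (RefSeq, GRCh38.p14), 5′ to 3′ on the strand of the gene, with capitals marking matches to the motifs listed after them. SLC12A3 lies on the plus strand at chr16:56864957-56865256, SLC12A7 on the minus strand at chr5:1112014-1112313 and SLC12A9 on the plus strand at chr7:100852463-100852762, which is the second start listed for it, inside its row, and SLC12A4 on the minus strand at chr16:67968645-67968944, the first of 4 listed.
SLC12A3: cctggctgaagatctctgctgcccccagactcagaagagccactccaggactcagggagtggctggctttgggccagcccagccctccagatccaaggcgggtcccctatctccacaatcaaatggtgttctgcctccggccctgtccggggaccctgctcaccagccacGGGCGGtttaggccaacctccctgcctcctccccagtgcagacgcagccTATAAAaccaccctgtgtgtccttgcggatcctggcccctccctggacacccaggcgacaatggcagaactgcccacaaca
SLC12A7: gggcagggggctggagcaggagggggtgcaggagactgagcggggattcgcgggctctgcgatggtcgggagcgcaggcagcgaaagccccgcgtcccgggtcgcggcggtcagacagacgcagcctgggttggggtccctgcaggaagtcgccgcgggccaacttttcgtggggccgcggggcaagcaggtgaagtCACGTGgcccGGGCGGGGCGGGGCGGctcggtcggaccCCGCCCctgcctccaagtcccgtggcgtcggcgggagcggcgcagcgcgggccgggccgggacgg
SLC12A9: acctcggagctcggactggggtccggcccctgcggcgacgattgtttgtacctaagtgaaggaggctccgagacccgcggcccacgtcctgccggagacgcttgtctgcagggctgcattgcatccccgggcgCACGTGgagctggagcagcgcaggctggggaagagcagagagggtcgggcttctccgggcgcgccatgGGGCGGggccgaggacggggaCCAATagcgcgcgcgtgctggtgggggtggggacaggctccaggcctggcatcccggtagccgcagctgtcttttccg
SLC12A4: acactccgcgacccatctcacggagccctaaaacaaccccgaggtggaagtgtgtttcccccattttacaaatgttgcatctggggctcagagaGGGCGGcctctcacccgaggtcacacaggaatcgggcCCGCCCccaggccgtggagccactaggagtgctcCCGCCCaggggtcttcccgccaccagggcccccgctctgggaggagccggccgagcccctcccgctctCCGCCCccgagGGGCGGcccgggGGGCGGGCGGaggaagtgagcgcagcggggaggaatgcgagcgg

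The motifs searched on both strands were the E-box CACGTG, the forkhead motif TGTTTAC, the ATF4-CEBP composite TGATGNAAN, the TATA motif TATAAA, the CCAAT box, the GC box GGGCGG and the ETS motif CCGGAAGT. SLC12A3 has TATAAA starting 31 bases before the start and 1 GC box starting 80 bases before it. TATAAA occurs in 11.5% of the 35116 windows of this length in the RefSeq table, and in none of the windows listed for the other 7 members, SLC12A1 with its few reads included. SLC12A7 has CACGTG 53 bases before the start, followed by 3 GC boxes that share a base with the next and a further one on the other strand. The inner SLC12A9 window has CACGTG 117 bases before its start, a GC box and a CCAAT box, whereas the window at the start of its row, not printed, has 1 GC box, neither of the other motifs and 16 CpG dinucleotides; CACGTG occurs in 7.26% of all windows and GGGCGG in 45.0%. The SLC12A4 window printed has 7 GC boxes, the last pair sharing 2 bases, and no other match, and its other windows have 10, 1 and 0 matches. The SLC12A8 window has no match. The SLC12A3 window holds 8 CpG dinucleotides, against a median of 14 over all windows, 39 for SLC12A7, 30 for the inner SLC12A9 window and 25 for SLC12A4. A match describes these letters and is not evidence of a bound factor.

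Among the sodium-coupled carriers, SLC12A3 (FASTDB gene GSHG0016508, hg38 chromosome 16, 56865207 to 56915850) had normalized counts of 119, 186 and 113 in the BEZ235 libraries and of 0, 1.03 and 0 in the DMSO libraries. All BEZ235 libraries were far above all DMSO libraries, and replicate 2 was the highest. In reads this was 416 against 1, a BEZ235 to DMSO ratio of 432 with an exact binomial 95% interval of 77.0 to 17089, which covers counting error only. The log2 difference on the log2(normalized count + 1) scale was 6.76 (SE 0.597), a value that moves with the added 1: it was 3.82 with 10 added and 8.64 in DESeq2. The gene passes the filter through its BEZ235 libraries alone. Its level per kb of exon was 22.6 ± 6.50 normalized counts with BEZ235, so the transcript stayed 4.89-fold below that of SLC12A2.

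SLC12A2 (GSHG0034661, chromosome 5, 128083766 to 128189677), the widely expressed sodium-potassium-chloride carrier NKCC1, had 1115, 1155 and 1258 normalized counts with BEZ235 and 1243, 1169 and 1201 in DMSO. The groups overlapped, with a log2 difference of -0.04 (SE 0.079) whose 95% interval ran from -0.21 to 0.14. SLC12A2-DT, the divergent transcript whose row lies 158 bases from the start of this one, had 1429, 1402 and 1495 with BEZ235 and 1485, 1779 and 1576 in DMSO. Its log2 difference was -0.16 (SE 0.082, limma adjusted p = 0.112, or 0.042 without DMSO replicate 1). SLC12A1 (GSHG0013706, chromosome 15, 48206302 to 48304078), the kidney carrier NKCC2 that loop diuretics block, had 3.47, 2.96 and 5.44 normalized counts with BEZ235 and 4.32, 9.30 and 0 in DMSO. These values rest on 0 to 9 reads per library and the groups overlap, so no fold is given. Of the 3 sodium-coupled genes, SLC12A2 was thus abundant in both groups, SLC12A3 was detected above the worth of 3 reads with BEZ235 alone, and SLC12A1 was hardly detected.

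Among the potassium-chloride carriers, SLC12A7 (GSHG0047461, chromosome 5, 1050384 to 1112063), known as KCC4, had 5194, 5510 and 4910 normalized counts with BEZ235 and 2124, 2403 and 2225 in DMSO. The groups were well apart, and the log2 difference was 1.21 (SE 0.069). SLC12A4, known as KCC1, had 3184, 3413 and 3398 with BEZ235 and 4974, 4128 and 4648 in DMSO, also without overlap but in the other direction, with a log2 difference of -0.46 (SE 0.074). Its row (GSHG0017360, chromosome 16, 67939750 to 67969192) also covers LCAT, the plasma cholesterol-esterifying enzyme, so reads of the 2 genes cannot be separated. SLC12A5 (GSHG0026877, chromosome 20, 46021686 to 46060150), the neuronal carrier KCC2, had 115, 135 and 120 with BEZ235 and 125, 58.9 and 86.8 in DMSO. DMSO replicate 1 lay inside the BEZ235 range, and the log2 difference of 0.51 (SE 0.275) was 0.77 without that library and 0.23 without DMSO replicate 2.

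The shift between SLC12A7 and SLC12A4 was visible inside each library, where scaling plays no part. Per kb of exon, SLC12A7 stood at 2.89, 2.86 and 2.56 times SLC12A4 in the BEZ235 libraries and at 0.755, 1.03 and 0.847 times in the DMSO libraries. The mean ratio was 3.15-fold higher with BEZ235. The exon length used for SLC12A4 includes LCAT, since both share the row.

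SLC12A9 and SLC12A8 are the divergent members, for which the transported substrates are less settled. SLC12A9 (GSHG0039771, chromosome 7, 100826869 to 100867012) had 2965, 3179 and 3171 normalized counts with BEZ235 and 1526, 1554 and 1632 in DMSO, a log2 difference of 0.98 (SE 0.065) with no overlap. SLC12A8 (GSHG0031671, chromosome 3, 125082638 to 125212748) had 280, 289 and 243 with BEZ235 and 169, 153 and 201 in DMSO. Its groups did not overlap either, and its log2 difference was 0.64 (SE 0.162). The plot of values by library shows these 8 genes together.

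**Figure D1:**
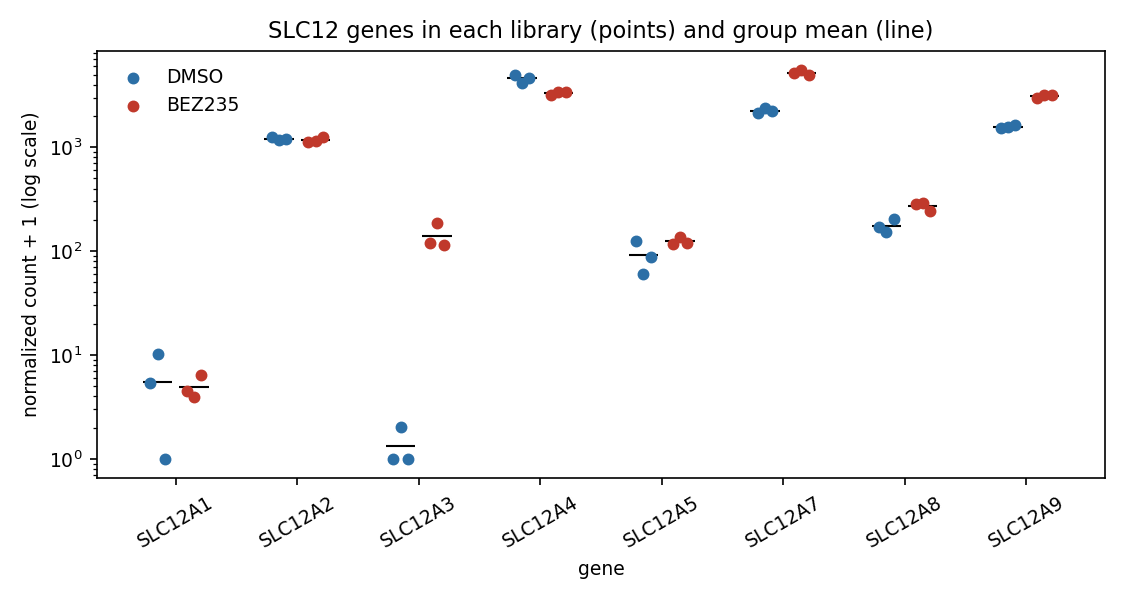
Normalized count + 1 on a log axis for the 8 SLC12 genes in each of the 3 DMSO (blue) and 3 BEZ235 (red) libraries, with points for libraries and black lines for group means. SLC12A3 is at 0 to 1.03 in DMSO and at 113 to 186 in BEZ235, SLC12A4 is lower in BEZ235, and SLC12A1, SLC12A2 and SLC12A5 overlap.

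Levels of different genes were compared per kb of exon, using the joined exons of GENCODE v29. In DMSO the order was SLC12A4 at 433 ± 40.3 (SD, n = 3), SLC12A7 at 376 ± 23.6, SLC12A9 at 177 ± 6.20, SLC12A2 at 113 ± 3.48, SLC12A8 at 31.2 ± 4.41, SLC12A5 at 10.1 ± 3.74, SLC12A1 at 0.354 ± 0.362 and SLC12A3 at 0.0556 ± 0.0962 normalized counts per kb. SLC12A4 and SLC12A7 overlapped between libraries there, as did SLC12A1 and SLC12A3. With BEZ235 the order was SLC12A7 at 870 ± 50.1, SLC12A9 at 349 ± 13.7, SLC12A4 at 315 ± 12.1, SLC12A2 at 110 ± 6.89, SLC12A8 at 48.5 ± 4.41, SLC12A3 at 22.6 ± 6.50, SLC12A5 at 13.8 ± 1.21 and SLC12A1 at 0.308 ± 0.102. No neighbours in that order overlapped between libraries.

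As shares of the summed level of the 8 genes, SLC12A4 made up 37.9 ± 2.74% (SD, n = 3) in DMSO and 18.2 ± 0.66% with BEZ235, and SLC12A7 went from 33.0 ± 2.82% to 50.3 ± 1.55%. SLC12A9 went from 15.5 ± 0.58% to 20.2 ± 0.76% and SLC12A2 from 9.90 ± 0.15% to 6.39 ± 0.51%. SLC12A3 reached 1.29 ± 0.32%. The summed level per kb was 1140 ± 25.8 in DMSO and 1729 ± 66.8 with BEZ235, a ratio of 1.52. By group, the ratio was 1.17 for the sodium-coupled members, 1.46 for the potassium-chloride members and 1.91 for SLC12A8 with SLC12A9. These ratios depend on the exon lengths. In normalized counts not divided by length they were 1.352 for all 8 genes and 1.091, 1.251 and 1.935 for the groups in that order. Within the sodium-coupled sum, SLC12A2 went from 113 to 110 per kb and SLC12A3 from 0.0556 to 22.6. In bulk RNA of a cell line such values cannot tell a change in every cell from a change in some cells.

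**Figure D2:**
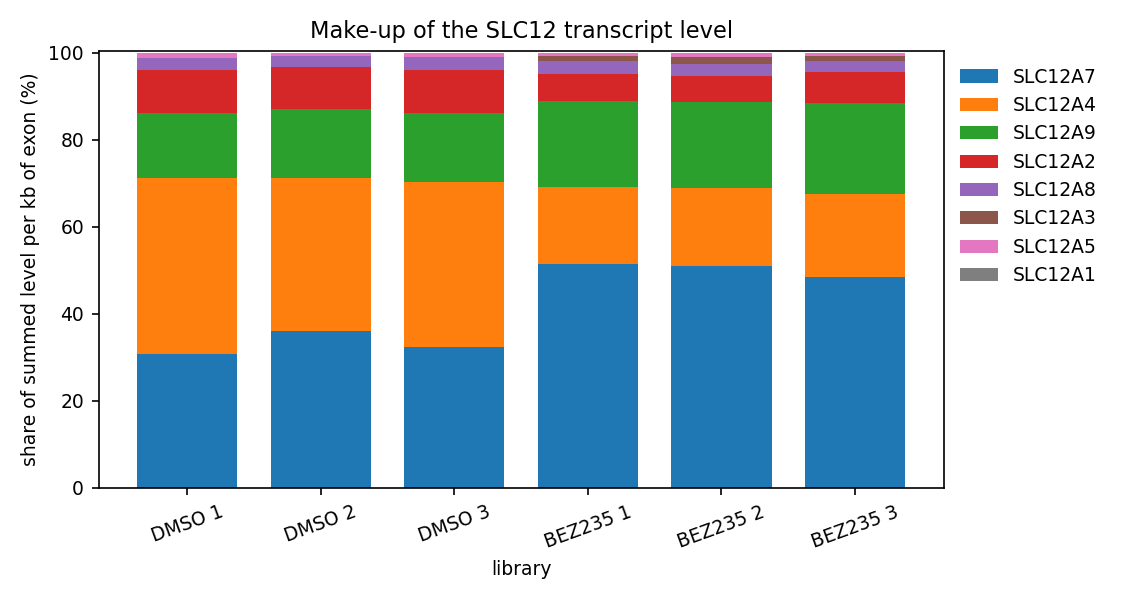
Share of each gene in the summed SLC12 level per kb of exon, in percent, for the 3 DMSO and 3 BEZ235 libraries as stacked bars. SLC12A4 holds 35.1 to 40.6% in DMSO and 17.8 to 19.0% with BEZ235, and SLC12A7 30.7 to 36.2% and 48.5 to 51.4%.

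Several member rows touch other rows, and since no source used here says whether counting kept the strand, reads could be shared. SLC12A9-AS1, an antisense gene inside SLC12A9, had 167, 169 and 147 normalized counts with BEZ235 and 77.8, 93.0 and 75.1 in DMSO, a log2 difference of 0.97 (SE 0.196, limma adjusted p = 0.00119). It stood at 5.19 ± 0.509% of SLC12A9 with BEZ235 and at 5.23 ± 0.701% in DMSO, a difference smaller than the spread between libraries. SLC12A9 also overlaps 655 bases of EPHB4, a receptor kinase on the other strand that rose by 0.47 (SE 0.053, limma adjusted p = 1.4e-05), and lies within a long row of VGF that held 80.8 ± 36.2 and 80.8 ± 3.03. SLC12A5-AS1 overlaps SLC12A5 by 388 bases and rose from 251 ± 19.7 to 494 ± 52.7, a log2 difference of 0.97 (SE 0.13, limma adjusted p = 5.3e-05). Unnamed rows overlap SLC12A4, with log2 differences of -0.79 (SE 0.16) and -0.27 (SE 0.132), and SLC12A7, with one of -0.72 (SE 0.344) where SLC12A7 itself was higher. The rows inside SLC12A3, SLC12A7 and SLC12A8 that carry a microRNA name held at most 2.50 normalized counts in any library.

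The nearest tested genes on each side did not share a direction with the SLC12 gene in several cases. NUP93, a nuclear pore protein that ends 14920 bases before SLC12A3, fell from 16081 ± 824 to 8198 ± 186, a log2 difference of -0.97 (SE 0.054, limma adjusted p = 5.52e-08). HERPUD1, a protein of endoplasmic reticulum quality control that begins 16263 bases after SLC12A3 on the same strand, fell from 17954 ± 757 to 2843 ± 151, with a log2 difference of -2.66 (SE 0.059). Within 500 kb of the SLC12A3 start, 22 other named genes were tested, of which 5 were called higher and 12 lower. Over all tested rows the shares were 33.1% and 33.2%. The log2 differences of the 22 ran from -4.35 (MT3) to 1.88 (CPNE2). MT3 averaged 35.5 normalized counts in DMSO and 1.16 with BEZ235, near the detection limit (SE 0.898). Several of the 22 are metallothionein genes, similar copies between which reads could be split. The window was set after the values of SLC12A3 were known.

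**Figure D3:**
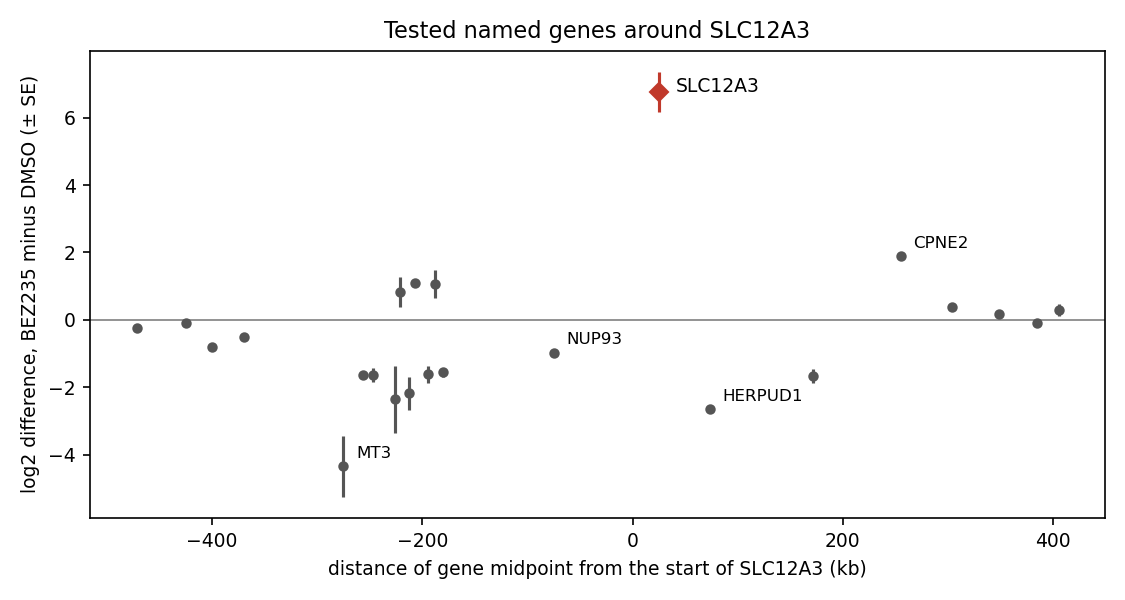
Log2 difference between BEZ235 and DMSO (± SE) of SLC12A3 (red diamond) and of the 22 other tested named genes (grey circles) against the distance of their midpoints from the SLC12A3 start, in kb. SLC12A3 stands at 6.76, and the others lie between -4.35 and 1.88.

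TRIP6, a focal adhesion protein that begins 332 bases after the end of SLC12A9 on the same strand, rose from 21083 ± 1373 to 44355 ± 2609, a log2 difference of 1.07 (SE 0.064, limma adjusted p = 9.48e-08), close in size to SLC12A9. PSMB10, an immunoproteasome subunit next to SLC12A4, rose by 1.12 (SE 0.084), whereas SLC12A4 was lower. Around SLC12A5, the nuclear receptor coactivator NCOA5 rose from 1135 ± 298 to 5443 ± 283, and the matrix protease MMP9 fell by 0.75 (SE 0.116). NCOA5 lies on the minus strand, and its end is 838 bases after SLC12A5. NKD2, a Wnt antagonist beside SLC12A7, fell by 1.56 on the log2 scale. Beside SLC12A8, HEG1 fell by 0.45 and ZNF148 rose by 0.48. DUT, a dUTP-hydrolysing enzyme beside SLC12A1, fell by 0.87, and SLC27A6, which begins 775450 bases after SLC12A2, fell by 1.18 (SE 0.457). MYEF2 beside SLC12A1, DPEP2 beside SLC12A4 and POP7 beside SLC12A9 had overlapping groups.

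The profile of SLC12A3 over the 6 libraries, on the log2(normalized count + 1) scale, was most like those of ZNF583 (Pearson's r = 0.9999), RNF214 (0.9998), GNPTG (0.9998), KAT6B (0.9997) and DMAP1 (0.9997). In all 5, replicate 2 was the highest library in each group. SLC12A3 had a single read in DMSO, in replicate 2, so its order there, and with it this ranking, rests on 1 read. With 2 groups of libraries far apart such likeness is common, and 1107 of 16643 named genes whose higher group averaged 50 or more had r above 0.99. Their changes were smaller, from a log2 difference of 1.01 for RNF214 to 2.67 for ZNF583, a zinc finger protein that rose from 208 ± 32.3 to 1319 ± 146.

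Genes of the WNK pathway, which controls these carriers by phosphorylation, were mostly lower. Of 17 listed genes 15 were tested, 11 fell and 2 rose, with a median log2 difference of -0.56, against 33.2% lower and a median of -0.001 over all tested rows. The kinases moved unequally. WNK4, the WNK kinase best known for control of SLC12A3, had 218, 160 and 172 normalized counts with BEZ235 and 387, 288 and 441 in DMSO, a log2 difference of -1.01 (SE 0.188, limma adjusted p = 0.000648), and the groups did not overlap. Its row overlaps 1920 bases of COA3, a mitochondrial protein gene that moved the other way, with a log2 difference of 0.92. WNK2 fell by 0.89 (SE 0.065). WNK3 had one of -0.28 (SE 0.11, limma adjusted p = 0.0396), which missed the threshold under 9 alternatives, with adjusted p from 0.053 to 0.113 there. WNK1 had one of 0.20 (SE 0.069, adjusted p = 0.0239) and missed it under 5, with adjusted p from 0.06 to 0.275.

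STK39, the kinase SPAK that phosphorylates the carriers, had 4650, 4560 and 4399 normalized counts with BEZ235 and 6539, 6967 and 6527 in DMSO, a log2 difference of -0.56 (SE 0.055, limma adjusted p = 4.65e-06). Its relative OXSR1 had 8658, 8602 and 7945 against 8220, 7766 and 7879, with overlapping groups and a log2 difference of 0.08 (SE 0.055, adjusted p = 0.232), which was -0.02 with total-count scaling. CAB39 and CAB39L, scaffold proteins that activate these kinases, fell by 0.49 and 0.64. The plot of log2 differences sets these beside the SLC12 genes.

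**Figure D4:**
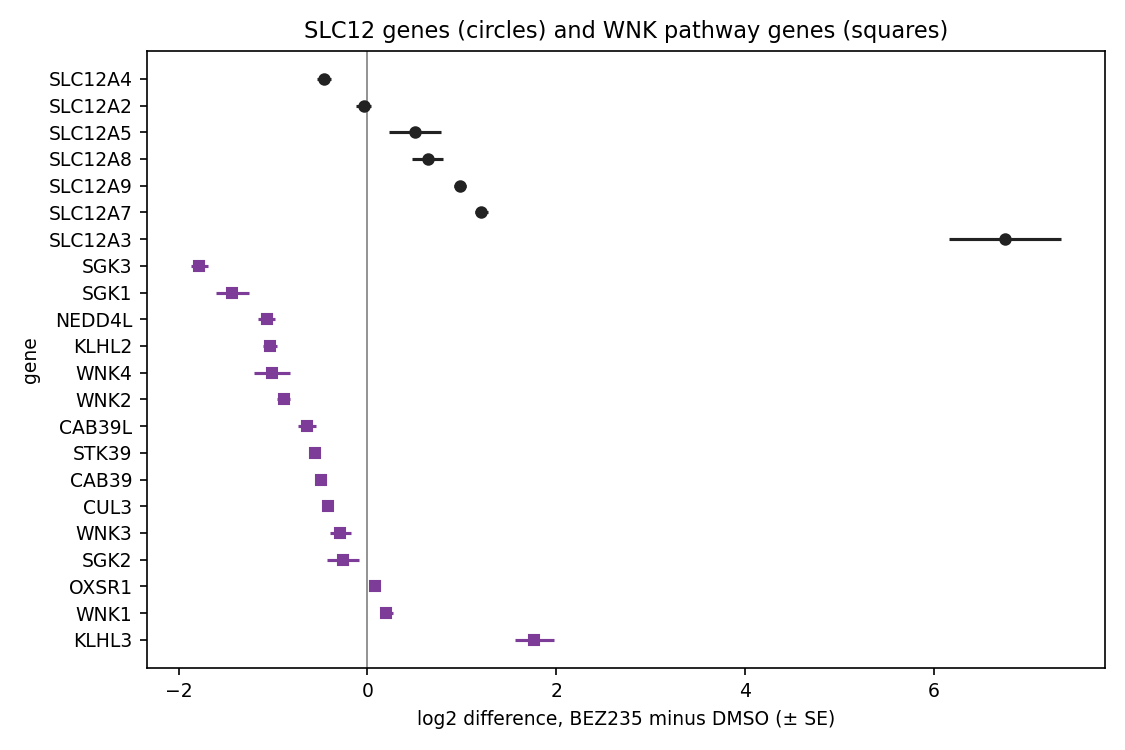
Log2 difference between BEZ235 and DMSO with its SE for the 7 tested SLC12 genes (circles) and the 15 tested WNK pathway genes (squares). SLC12A3 lies at 6.76 and the other SLC12 genes between -0.46 and 1.21, while WNK pathway genes run from -1.78 (SGK3) to 1.77 (KLHL3).

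KLHL3, the adaptor through which the ubiquitin ligase CUL3 marks WNK kinases for degradation, was the pathway gene that rose most, from 106, 70.2 and 88.5 normalized counts in DMSO to 331, 248 and 324 with BEZ235, a log2 difference of 1.77 (SE 0.205, limma adjusted p = 1.8e-05). Its relative KLHL2 moved the other way, with a log2 difference of -1.03 (SE 0.075), and CUL3 fell by 0.42. SGK1, the serum- and glucocorticoid-regulated kinase that PI3K signalling activates, went from 557, 812 and 607 normalized counts in DMSO to 244, 289 and 198, a log2 difference of -1.43 (SE 0.176, limma adjusted p = 2.81e-05). SGK3 fell by 1.78 (SE 0.09), and in SGK2 the groups overlapped (log2 difference -0.25, SE 0.169). NEDD4L, the ubiquitin ligase that SGK kinases restrain, fell by 1.07 (SE 0.089).

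The sodium pump maintains the sodium gradient that drives the sodium-coupled carriers. The beta subunit ATP1B3 fell by 1.09 (SE 0.048) and FXYD1, a small regulator of the pump whose row overlaps others, fell by 1.80 (SE 0.421). ATP1B1 had a log2 difference of -0.17 (SE 0.097, adjusted p = 0.144). In all, 3 of 9 tested pump genes fell, about the 33.2% over all tested rows, and 0 rose. With total-count scaling 6 fell, and with quantile normalization 4 fell and 1 rose.

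Of 16 tested chloride channel genes, 8 fell and 4 rose, beside 33.2% and 33.1% over all tested rows. Their median log2 difference was -0.29, or -0.095 without BEZ235 replicate 3. All 5 LRRC8 genes, subunits of the volume-regulated anion channel, fell, LRRC8B most, by 0.94 (SE 0.068). BEST1, a calcium-activated chloride channel, went from 4277, 5418 and 4679 normalized counts in DMSO to 116, 133 and 116 with BEZ235, a log2 difference of -5.28 (SE 0.11, limma adjusted p = 1.1e-10). The BEST1 row overlaps 1231 bases of FTH1, the ferritin heavy chain gene, which held a mean of 1702613 normalized counts in DMSO and had a log2 difference of -1.36, and also overlaps FADS3, so that its reads could be shared. PACC1, the acid-activated chloride channel, fell by 0.64, and CLCN2, a voltage-gated chloride channel whose row overlaps EIF2B5, rose by 0.74 (SE 0.067).

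Bicarbonate, anion and proton exchangers, which move chloride or sodium by other routes, were split. Of 23 tested, 10 fell and 7 rose, beside 33.2% and 33.1% over all tested rows. The median of -0.25 had no stable sign: it was -0.03 without BEZ235 replicate 1, 0.05 without DMSO replicate 1, 0.02 without DMSO replicate 3 and 0.07 with the filter at 50. SLC4A2, a chloride-bicarbonate exchanger, rose from 17226, 21248 and 18945 normalized counts in DMSO to 62703, 65682 and 59301, a log2 difference of 1.71 (SE 0.075, limma adjusted p = 9.95e-09). SLC4A7, a sodium-bicarbonate carrier, fell by 1.35 (SE 0.06), SLC4A11 fell by 1.39 and SLC26A10 fell by 2.21. The SLC26A10 row overlaps 2743 bases of B4GALNT1, which averaged 1960 normalized counts in DMSO and 371 with BEZ235, a log2 difference of -2.40. It also overlaps LOC101927583, which had a log2 difference of 0.365, and reads could be shared between these rows.

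GABA-A and glycine receptors are chloride channels whose effect on a neuron depends on the gradient that SLC12A2 and SLC12A5 set. Of 24 listed, 11 were tested, 4 fell and 3 rose, near the 33.2% and 33.1% over all tested rows. The count lower was 2 without DMSO replicate 1 and 3 without DMSO replicate 2 or 3. GABRG1 passes the filter through its DMSO libraries alone, so leaving out any of them took it out of the test. The median log2 difference of -0.58 was -0.92 without BEZ235 replicate 1, -0.11 without BEZ235 replicate 3 and -0.28 without DMSO replicate 3. GABRG1 had 113, 68.2 and 72.6 normalized counts in DMSO and 0 reads in all BEZ235 libraries, which is at least 82.9-fold lower, taking 3 reads over the 3 BEZ235 libraries as the floor. GLRB, the glycine receptor beta subunit, fell by 0.60 (SE 0.098), GABRR2 by 1.30, and GPHN, the scaffold gephyrin, rose by 0.65 (SE 0.055). The osmolyte list joins genes for the organic solutes that hypertonic cells accumulate with other genes, such as the chaperone HSPA4L. Of its 12 genes, 5 were lower and 3 higher, beside 33.2% and 33.1%, or 5 and 1 with total-count scaling. Their median of 0.13 was -0.08 with that scaling, -0.01 without BEZ235 replicate 2, 0.03 without replicate 1 and 0.04 without replicate 3 of that group, and 0.08 without DMSO replicate 2. HSPA4L fell by 1.74 (SE 0.057), the taurine carrier SLC6A6 by 1.05 and the inositol carrier SLC5A3, which shares its row with MRPS6, by 0.68, and PNPLA6 rose by 0.36. The row of SLC6A6 overlaps XPC and other genes.

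Kidney tubule genes were measured because SLC12A3 and SLC12A1 mark that tissue. Of 12 listed, 7 were tested and 2 rose, beside 33.1% over all tested rows, with none lower. Their median log2 difference of 0.17 was 0.07 with total-count scaling, 0.10 without BEZ235 replicate 3 and 0.11 without DMSO replicate 2. PAX8, a kidney and thyroid transcription factor, rose from 193, 236 and 233 normalized counts in DMSO to 467, 513 and 520, a log2 difference of 1.18 (SE 0.131, limma adjusted p = 1.23e-05), and overlaps the 2 rows of PAX8-AS1, which had log2 differences of 0.97 and 1.12. CALB1, the calcium-binding protein calbindin of the distal tubule and of neurons, rose from 86.4, 123 and 79.3 to 256, 246 and 256, a log2 difference of 1.41 (SE 0.199). UMOD was at 0 in all libraries, CDH16, PVALB, KCNJ1 and BSND did not pass the filter, and the summed level of the list was 946 to 1070 in DMSO and 1407 to 1449 with BEZ235. Their part in the level of SLC12A3 was not tested.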

How the data were processed

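RNA from TC-71 cells treated for 16 h with BEZ235 or DMSO was sequenced in 3 libraries per group. The values are a signal, the normalized gene counts that the authors deposited in 1 table, whose rows are FASTDB genes at hg38 coordinates per the file headers. The submitters' processing notes list the tools STAR 2.4.0, SAMtools, Picard, FastQC and DESeq without their roles, and how reads were assigned to genes is not stated there. Control columns were matched to the DMSO samples by number. Whole reads were recovered within 0.01 normalized counts.

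The 23923 rows at 10 or more normalized counts in 3 or more libraries were fitted with limma 3.58.1 (R 4.3.3, mean-variance trend) on log2(normalized count + 1). Tests were two-sided, p-values were adjusted by Benjamini-Hochberg over all rows, calls were made at 0.05, and the procedure was checked on simulated data. Alternatives were edgeR 4.0.16 and DESeq2 1.42.0 on the recovered reads, TMM, quantile and total-count scaling, other pseudocounts and filters, a fit with no trend, a replicate block, and leaving out each library. The SLC12 genes, the companion lists and the rule for named genes were chosen with earlier results of these data known. The rule names the 8 members, up to 3 genes of each companion list in its more frequent direction and 1 in the other, 9 genes of the WNK pathway and the sodium pump whatever their values, the nearest tested genes beside each member and the 5 genes most like SLC12A3. CAB39, CAB39L, CUL3, SGK2, MT3, CPNE2, EPCAM and the genes overlapping a named row were added after their values were seen, and some genes the rule selects are not reported here. Exon lengths come from GENCODE v29. Start-site windows come from RefSeq (GRCh38.p14), which matched all 8 members.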

Additional observations from a re-analysis of the deposited data

How the results depend on the processing

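Over all alternatives 14285 to 16102 genes were called (15744 in edgeR and 15706 in DESeq2). Leaving out a BEZ235 library took SLC12A3 below the filter, which needs 3 libraries, so it has no value there; elsewhere its log2 difference ran from 3.82 to 8.64. As a description, since the members were chosen on this contrast, the log2 difference over the alternatives ran from -0.553 to -0.395 for SLC12A4, 1.113 to 1.258 for SLC12A7, 0.543 to 0.747 for SLC12A8, 0.886 to 1.037 for SLC12A9 and 0.234 to 0.773 for SLC12A5. The log2 difference of SLC12A2 ran from -0.085 to 0.001 over the fits without 1 library. It was 0.009 with quantile normalization and -0.132 with total-count scaling. That of OXSR1 was -0.018 with total-count scaling. That of VGF was 0.012 in edgeR, 0.005 in DESeq2 and -0.424 to 0.178 over the fits without 1 library. The sodium pump list had 5 called genes with quantile normalization and 6 with total-count scaling, against 3; the cause was not tested. With the replicate number as a block 15917 genes were called. Same-numbered libraries deviated from their group means with correlations of -0.038, 0.023 and 0.044, within the -0.097 to 0.072 of differently numbered ones. No pairing by number was visible, but such low correlations cannot exclude that libraries were prepared in pairs. With the block WNK3 missed the threshold (limma adjusted p = 0.053). The block left the direction and call of the other single genes recomputed here, and it gave 4 called sodium pump genes. SLC12A1, at 9 reads or fewer per library, and the DMSO level of SLC12A3, at 1 read in all, are limited by depth.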
